A study of Mus musculus with 4 samples.

Results

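The genes described are the 8 Fc receptor genes of the mouse that were measured here, out of 30406 genes shared by the 4 libraries. They were chosen by name and not by a value, though with earlier results of these data known. They comprise *Fcgr1*, *Fcgr3* and *Fcgr4* (activating IgG receptors), *Fcgr2b* (the inhibitory IgG receptor) and *Fcer1g* (the common gamma chain). The others are *Fcer1a* and *Ms4a2* (the alpha and beta chains of the IgE receptor) and *Fcgrt* (the neonatal Fc receptor, FcRn). Single cells came from popliteal lymphatic vessels (PLVs), which drain the hind limb, and the adjacent superficial saphenous vein, each library from 3 pooled mice. Repeat sorts gave the tdT1 and tdT2 libraries of tdT+ cells from Cspg4-Cre;tdTomato mice of both sexes, in which Cre marks smooth muscle and pericyte-type cells, so their leukocytes were cells that passed a sort for another cell type. The WT library came from male mice labelled C57BL6 (C57BL/6J in the study's methods) and the TNF-Tg library from male mice carrying a human TNF transgene, a model of inflammatory-erosive arthritis, and all lines were on this background. Both were 9 months old by the labels, were sorted on high forward or side scatter without a reporter, and stood alone for their condition.

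Fc receptors bind the constant part of antibodies and so tell a leukocyte what an antibody has bound. The activating IgG receptors and the IgE receptor carry no signalling motif of their own in the ligand-binding chain and depend on the gamma chain, whose ITAM recruits the kinase Syk, while the single inhibitory IgG receptor of the mouse carries an ITIM that recruits phosphatases and restrains the same pathway. FcRn works inside cells, where it binds IgG at acid pH together with beta-2 microglobulin and returns it to the surface, which is why it is known for the long life of IgG in blood.

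The libraries held 454 to 5488 cells, and the median cell of a library held 4932.5 to 12660 unique molecular identifiers (UMIs, each standing for 1 captured transcript). A leukocyte gate took 152 of the tdT1 cells, 169 of tdT2, 2295 of WT and 1823 of TNF-Tg. The gates used marker genes that include none of the 8, and every type named below is the cells of such a gate, to be read as "-like". *Ptprc* (CD45) was at most 2.40 CPM (UMIs of a gene scaled to the same total in each type and library) in the 2 stromal gates and at 68.9 CPM or above in every leukocyte gate of at least 5 cells. The libraries shared between 0 and 5 cell barcodes in pairs. The tdT leukocytes were few, 5 to 44 cells a type among the macrophages, monocytes and neutrophils. The tdT1 resident macrophages stood apart in quality. Their median cell held 8.21% of its UMIs from mitochondrial genes, against at most 1.90% in the other libraries, and the median depth was 2279 UMIs.

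Of the 8 genes, 5 lie on chromosome 1 (GRCm38). *Fcgr2b* (chr1:170958617-170976547), *Fcgr4* (chr1:171018920-171029761) and *Fcgr3* (chr1:171051174-171064935) were neighbours within 106.3 kb, followed by *Fcer1g* (chr1:171229572-171234365) and *Fcer1a* (chr1:173221284-173227214). *Fcgr1* (chr3:96282909-96293969), *Fcgrt* (chr7:45092990-45103851) and *Ms4a2* (chr19:11615523-11623719) lay elsewhere. The libraries count the 3′ ends of transcripts, 1 UMI a molecule whatever its length, so transcript length does not scale CPM. Genes can still differ in how well they are captured, which was not measured. Comparisons between genes below are therefore of UMIs. No word of 50 bases was shared between the last 500 bases of the annotated transcripts of any pair of the 8, so that 3′ reads of that length could be told apart.

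The 100 bases before the start of *Fcer1a*, *Ms4a2* and *Fcgr4* are shown because, of the 8, these hold a match to a motif of factors known in mast cells, basophils or phagocytes. The windows come from RefSeq (GRCm38.p6), where all 8 genes had an entry, *Fcgr3* with 2 starts. Capitals mark AGATAA, a motif bound by GATA factors, in the first 2 windows and GAGGAAGT, a motif bound by PU.1, in the third, searched on both strands (a match on the other strand reads TTATCT or ACTTCCTC).
*Fcer1a*, chr1:173227230-173227329, minus strand: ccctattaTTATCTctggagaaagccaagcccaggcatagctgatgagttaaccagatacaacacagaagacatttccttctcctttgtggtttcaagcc
*Ms4a2*, chr19:11623720-11623819, minus strand: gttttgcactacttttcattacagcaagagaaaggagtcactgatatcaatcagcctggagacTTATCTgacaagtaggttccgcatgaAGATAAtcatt
*Fcgr4*, chr1:171018826-171018925, plus strand: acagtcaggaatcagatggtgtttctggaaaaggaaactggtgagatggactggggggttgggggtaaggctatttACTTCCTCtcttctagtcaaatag
In the 250 bases before the start, AGATAA was found 3 times for *Ms4a2* (11, 37 and 224 bases before the start), 1 time for *Fcer1a* (92 bases before it) and in none of the other 6 genes, against 9.99% of 32851 promoter windows of that length. GAGGAAGT was found for *Fcgr4* alone of the 8 (24 bases before the start), against 2.44% of these windows. These matches describe letters and no binding was measured.

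The IgG receptors divided the myeloid cells by type. Resident macrophages (gated on *Lyve1*, *Cd163* and *Folr2*) held more UMIs of *Fcgr2b* than of the activating receptors. Neutrophils held *Fcgr3* with some *Fcgr4* and almost no *Fcgr2b*, and patrolling monocytes held the highest *Fcgr4*. The levels of all 4 IgG receptor genes are drawn by type and library in the plot of IgG receptor levels.

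**Figure D1:**
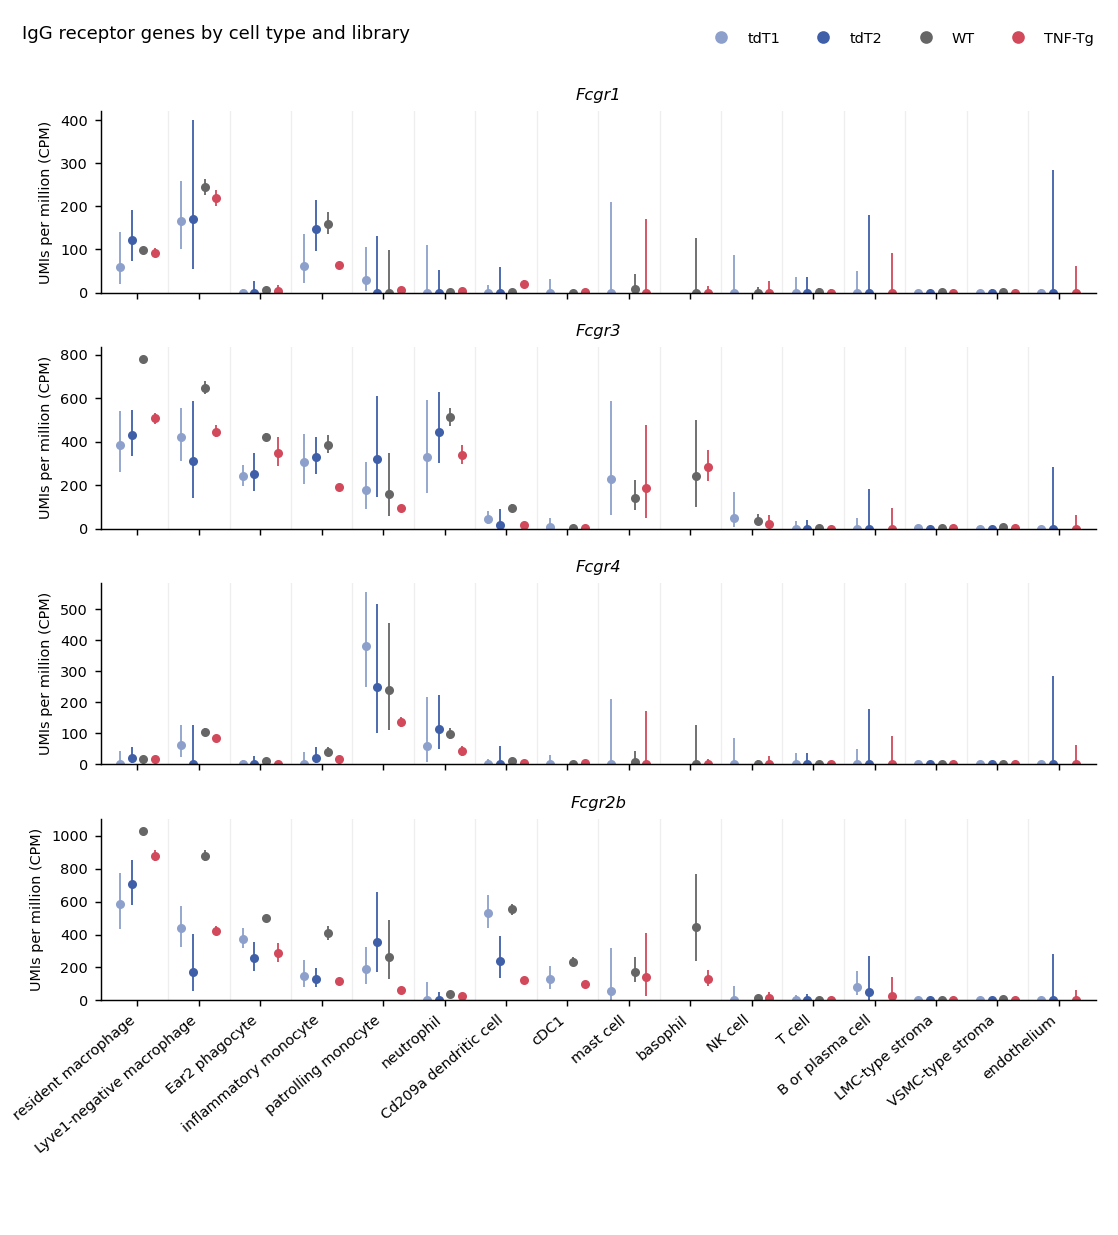
CPM of *Fcgr1*, *Fcgr3*, *Fcgr4* and *Fcgr2b* (vertical axes, linear from 0) in each gated cell type (horizontal axis) and library (colours), with exact 95% Poisson intervals that cover counting error only. *Fcgr4* was highest in patrolling monocytes, at 136 to 380 CPM, and *Fcgr2b* in resident macrophages, at 585 to 1031 CPM.

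*Fcgr1* (CD64), the high-affinity IgG receptor, was a gene of macrophages and inflammatory monocytes. In *Lyve1*-negative macrophages (gated on *Trem2* and C1q genes) it stood at 166 CPM in tdT1, 172 in tdT2, 244 for WT and 219 for TNF-Tg. In inflammatory monocytes (gated on *Ly6c2* and *Chil3*) the values were 62.8, 147, 159 and 64.4 CPM, and in resident macrophages 59.7, 122, 98.4 and 92.5 CPM. The *Lyve1*-negative macrophages thus did not overlap with either of the others, while these 2 overlapped. The *Lyve1*-negative gate took only cells without a UMI of *Lyve1*. Its marker list summed to 9218, 15069, 16304 and 6907 CPM in tdT1, tdT2, WT and TNF-Tg, against 7623, 11457, 17301 and 10971 in resident macrophages. The 7 tdT2 cells of this gate held 9955 CPM of the resident macrophage markers, at a median of 3365 UMIs. Patrolling monocytes held 2 UMIs of *Fcgr1* in tdT1, 0 in tdT2, 0 for WT and 10 for TNF-Tg, and neutrophils 0, 0, 3 and 2 UMIs, the last 2 being 2.40 and 2.92 CPM. Stromal cells, which served as a measure of free RNA, held at most 0.56 CPM. In WT the median stromal cell held 14675.5 UMIs and the median neutrophil 3514.5. How the share of free RNA changes with depth was not tested, so stromal CPM may understate it in shallow cells.

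*Fcgr3* (CD16), a low-affinity activating receptor, was spread over every phagocyte type. It reached 382, 431, 777 and 506 CPM in the resident macrophages of tdT1, tdT2, WT and TNF-Tg, and 331, 442, 513 and 338 CPM in the neutrophils of the same libraries. Those ranges overlapped, as did those of *Lyve1*-negative macrophages (309 to 647 CPM), inflammatory monocytes (191 to 386 CPM) and the *Ear2* phagocytes (241 to 423 CPM). Basophils held 241 CPM in WT and 282 in TNF-Tg. Type 1 conventional dendritic cells (cDC1) held 2.22 to 8.51 CPM, against 0 to 3.96 CPM in stroma.

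*Fcgr4* (CD16-2), the activating receptor for IgG2a and IgG2b, was highest in patrolling monocytes (gated on *Treml4*, *Spn* and *Ace*), at 380 CPM in tdT1, 250 in tdT2, 240 for WT and 136 for TNF-Tg. Neutrophils held 60.2, 114, 99.3 and 42.4 CPM, and *Lyve1*-negative macrophages 61.2, 0, 105 and 83.9 CPM, so that neither reached the patrolling monocytes in any library. Inflammatory monocytes held at most 41.4 CPM and resident macrophages at most 19.3 CPM. The tdT2 patrolling monocytes and those of WT were 5 cells each and rest on 7 and 9 UMIs of *Fcgr4*. The gene was detected in 27.6% of the WT neutrophils and 10.8% of those of TNF-Tg, at median depths of 3514.5 and 3140 UMIs, and in at most 0.0991% of stromal cells in any library.

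*Fcgr2b* (CD32b) was highest in the resident macrophages of each library, at 585 CPM in tdT1, 707 in tdT2, 1031 for WT and 880 for TNF-Tg. Next came *Lyve1*-negative macrophages (437, 172, 879 and 424 CPM), *Cd209a* dendritic cells (531, 238, 553 and 125 CPM) and *Ear2* phagocytes (375, 256, 498 and 287 CPM), whose ranges overlapped each other. In neutrophils, 0 UMIs were seen in both tdT libraries, where 3 UMIs would have been 90.3 and 42.8 CPM, and 47 UMIs in WT and 19 in TNF-Tg (37.7 and 27.8 CPM). Without 2 doublets the 338 WT neutrophils held 26 UMIs of *Fcgr2b* (21.1 CPM). B or plasma cells, in which this is known as the only IgG receptor, held 82.0 CPM in tdT1, 48.8 in tdT2 and 25.0 in TNF-Tg on 6, 1 and 1 UMIs, and 0 UMIs of the 3 activating receptors.

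Activating and inhibitory genes were found in the same macrophages. Of 856 WT resident macrophages, 789 (92.2%) held a UMI of both *Fcgr2b* and *Fcgr3*, and 226 of 244 (92.6%) did so in TNF-Tg, against 8 of 21 in tdT1 and 27 of 44 in tdT2, whose cells were shallower. Of 340 WT neutrophils, 18 (5.29%) held both and 249 (73.2%) *Fcgr3* without *Fcgr2b*. In stroma, 5.07% of WT cells held a UMI of *Fcgr2b* and 4.08% of *Fcgr3* at a median depth of 14675.5 UMIs, against 12046.5 in resident macrophages and 3514.5 in neutrophils. Cells with at least 3000 UMIs were also thinned to 3000 UMIs each, and shallower cells were left out. *Fcgr2b* was then found in 92.4% of WT resident macrophages, 5.65% of neutrophils and 1.50% of stromal cells. The thinned share of neutrophils thus covers their deeper cells only.

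To set the balance of the receptors, the activating UMIs (*Fcgr1*, *Fcgr3* and *Fcgr4*) were expressed as a percentage of all IgG receptor UMIs of a type in a library. Neutrophils stood at 100% in tdT1 (13 of 13 UMIs) and tdT2 (39 of 39), 94.2% in WT (95% exact binomial interval 92.4 to 95.7) and 93.2% in TNF-Tg (89.6 to 95.9). Resident macrophages stood at 43.0%, 44.7%, 46.4% (45.7 to 47.1) and 41.1% (39.7 to 42.6) in the same order. The 2 types did not overlap, and resident macrophages were below 50% in all 4 libraries. In tdT1 and tdT2 their shares come from 21 and 44 cells, and the exact intervals reach above 50%.

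Between them stood inflammatory monocytes (71.4%, 79.1%, 58.9% and 69.3%), patrolling monocytes (75.5%, 61.5%, 60.0% and 78.0%) and *Lyve1*-negative macrophages (59.7%, 73.7%, 53.1% and 63.8%). These 3 overlapped each other and lay above the resident macrophages of the same library in 4 of 4 libraries. The patrolling monocytes of tdT2 and WT were 5 cells each, and the *Lyve1*-negative macrophages of tdT2 were 7 cells. Their shares rest on few UMIs. *Ear2* phagocytes ranged from 39.4% to 55.1% and overlapped with resident macrophages. Of these 8 myeloid types the dendritic cells had the lowest activating shares, with 6.25% to 24.4% in *Cd209a* dendritic cells and 1.29% to 7.37% in cDC1.

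As log2 of the activating to inhibitory ratio, with 0.5 UMI added to each sum, the mean difference from resident macrophages was 5.06 in neutrophils (range 4.22 to 6.61 over 4 libraries), 1.58 in inflammatory monocytes (0.73 to 2.21), 1.51 in patrolling monocytes (0.77 to 2.34), 1.10 in *Lyve1*-negative macrophages (0.39 to 1.70) and -2.37 in *Cd209a* dendritic cells (-3.19 to -1.11). Each of these had the same sign in 4 of 4 libraries and an exact two-sided sign-flip permutation p of 0.125, which is the smallest that 4 libraries allow (0.175 after Benjamini-Hochberg adjustment over 7 comparisons), so none could pass 0.05. In *Ear2* phagocytes the difference was 0.22 (-0.22 to 0.81, higher in 3 of 4 libraries, exact permutation p = 0.375). In cDC1 it was -3.96 (-5.88 to -2.97, lower in 3 of 3 libraries, exact permutation p = 0.25, the smallest possible). These values are drawn in the plot of activating shares.

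**Figure D2:**
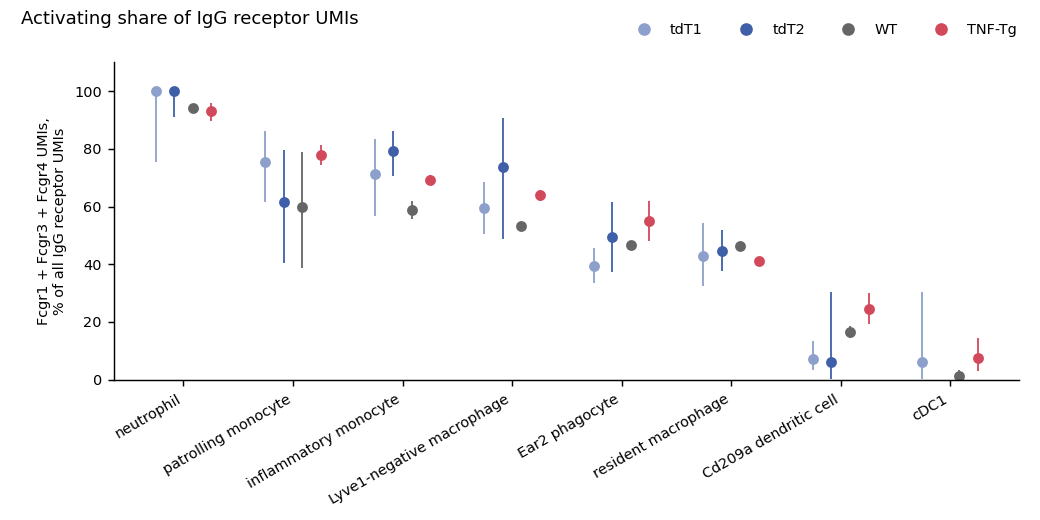
Activating share of the IgG receptor UMIs (vertical axis, percent from 0) in each gated cell type (horizontal axis) and library (colours), with exact 95% binomial intervals that cover counting error only. Neutrophils lie at 93.2% to 100%, resident macrophages at 41.1% to 46.4% and cDC1 at 1.29% to 7.37%.

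The types were then compared gene by gene with edgeR's quasi-likelihood test on UMIs summed per type and library, taking each library as a block. It covered 6071 genes, at an adjusted p (Benjamini-Hochberg over those genes) below 0.01. The libraries are the replicates, and the labels do not tie them to separate animals beyond the 3 mice pooled in each. With library as a block, the test measures how differences between types vary among these 4 libraries. That spread was estimated from all 46 sums of the leukocyte types together, not from the compared types alone. Between neutrophils and resident macrophages 51.9% of all genes were called, and 5 of the 8 were. *Fcgr4* was higher in neutrophils (log2 difference 2.95 ± 0.44 SE, adjusted p = 1.1e-07), and *Fcgr1* (-4.43 ± 0.66), *Fcgr2b* (-4.22 ± 0.41) and *Fcgrt* (-5.25 ± 0.51) were lower. *Fcgr3* differed by 0.21 ± 0.30 (edgeR adjusted p = 0.55). The fifth call, *Fcer1a*, rests on 10 UMIs in WT neutrophils and 1 in those of TNF-Tg (2.44 ± 0.71), and without the WT library the difference was -0.13. The mast cell markers summed to 356 CPM in the WT neutrophils (6 of 7 detected) and 123 CPM in those of TNF-Tg (5 of 7), and their part in the call was not tested.

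Between inflammatory monocytes and resident macrophages 25.9% of all genes and 2 of the 8 were called, both lower in monocytes: *Fcgr2b* (-2.11 ± 0.33, edgeR adjusted p = 4.3e-07) and *Fcgrt* (-4.15 ± 0.44). *Fcgr3* (-0.78 ± 0.30), *Fcgr1* (0.23 ± 0.35) and *Fcgr4* (0.64 ± 0.43) did not pass the test. Between *Lyve1*-negative and resident macrophages 4.97% of all genes and 2 of the 8 were called: *Fcgr4* was higher in the *Lyve1*-negative cells (2.45 ± 0.41, edgeR adjusted p = 2.8e-05) and *Fcgrt* lower (-1.93 ± 0.38). *Fcgr1* was at 1.22 ± 0.35 with an edgeR adjusted p of 0.019. *Fcgr4* missed the threshold without the WT library and *Fcgrt* without tdT1 (edgeR adjusted p = 0.012 and 0.013), which left 1 call each.

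Between the 2 kinds of monocyte 3.97% of all genes and 2 of the 8 were called. *Fcgr4* was higher (3.18 ± 0.43, edgeR adjusted p = 4.9e-07) and *Fcgr1* lower (-4.23 ± 0.65) in patrolling than in inflammatory monocytes. The *Fcgr1* call was lost without the TNF-Tg library (edgeR adjusted p = 0.015). In *Cd209a* dendritic cells against resident macrophages 30.7% of all genes and 4 of the 8 were called, all lower in dendritic cells: *Fcgr3* (-3.39 ± 0.35, edgeR adjusted p = 1.7e-12), *Fcgr1* (-3.22 ± 0.46), *Fcgrt* (-2.17 ± 0.38) and *Fcgr2b* (-1.15 ± 0.32). The last of these missed the threshold without tdT2, WT or TNF-Tg (edgeR adjusted p = 0.025, 0.052 and 0.10).

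*Fcer1g*, the shared signalling chain, was abundant in the myeloid types, with cDC1 the lowest of them by the median over libraries (521 CPM, range 281 to 618). It ranged from 3232 to 5152 CPM in patrolling monocytes, 1581 to 4121 in inflammatory monocytes, 1414 to 3720 in neutrophils, 1513 to 4362 in *Lyve1*-negative macrophages and 502 to 3336 in resident macrophages. It passed the edgeR test in none of the 7 comparisons between types, which did not include cDC1. The comparison of neutrophils with resident macrophages (1.10 ± 0.45, edgeR adjusted p = 0.034) came nearest.

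Natural killer (NK) cells, in which the gamma chain is known to serve CD16 and NKp46, held *Fcer1g* at 1287 CPM in tdT1, 1878 in WT and 3690 in TNF-Tg, with *Fcgr3* at 46.8, 34.0 and 21.6 CPM on 2, 9 and 3 UMIs. T cells held 210, 0, 42.4 and 265 CPM of *Fcer1g* across tdT1, tdT2, WT and TNF-Tg. B or plasma cells held 0 UMIs. In stroma the gene reached 18.1 CPM in WT and 12.3 in TNF-Tg, with a UMI in 15.1% and 11.7% of cells.

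*Fcer1g* was lower in tdT1 than in tdT2 in 7 of 7 leukocyte types with at least 20 UMIs over both and a UMI in each, by log2 ratios of -0.67 to -1.98. T cells went the other way, with 22 UMIs in tdT1 and 0 in tdT2, which gives no ratio. Without tdT1 the range was 1974 to 3336 CPM in resident macrophages and 2696 to 3720 in neutrophils. The tdT1 matrix was also the one with another Cell Ranger version in its header (3.1.0 against 6.0.1) and the highest mitochondrial share, whose part in the difference was not tested. By the study's methods tdT1 also had a smaller sort nozzle and another sequencer, and their part was not tested either.

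**Figure D3:**
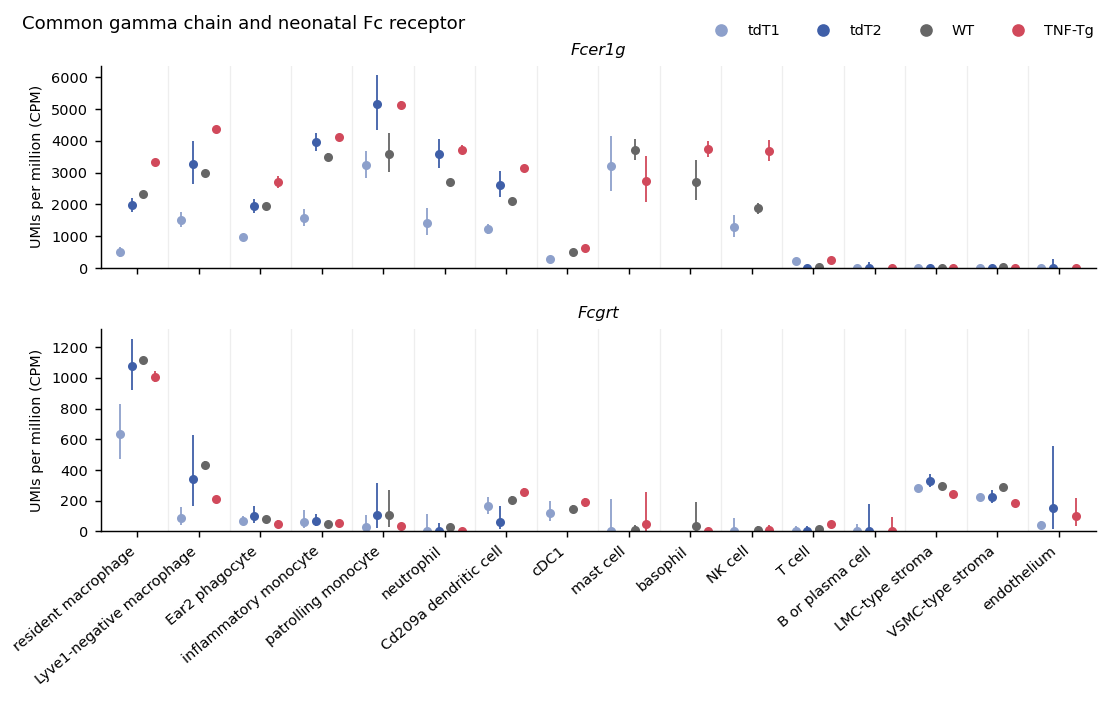
CPM of *Fcer1g* and *Fcgrt* (vertical axes, linear from 0) in each gated cell type (horizontal axis) and library (colours), with exact 95% Poisson intervals that cover counting error only. *Fcer1g* spans the myeloid types (cDC1 at 281 to 618 CPM), mast cells, basophils and NK cells, whereas *Fcgrt* is highest in resident macrophages (633 to 1115 CPM) and is also seen in stroma.

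Resident macrophages were set apart by *Fcgrt*. They held 633 CPM in tdT1, 1080 in tdT2, 1115 for WT and 1009 for TNF-Tg, above every other type in every library. The next were all stromal cells of both types (274, 288, 297 and 224 CPM) and *Lyve1*-negative macrophages (87.5, 343, 431 and 210 CPM), which overlapped. *Cd209a* dendritic cells held 63.5 to 257 CPM and cDC1 119 to 189 CPM. Inflammatory monocytes held 46.7 to 65.3 CPM in all 4 libraries.

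Neutrophils held 0 UMIs of *Fcgrt* in both tdT libraries, 36 in WT (28.8 CPM) and 2 in TNF-Tg (2.92 CPM), and basophils and mast cells 1 UMI or none a library. Endothelial cells, a known site of FcRn, held 44.2 CPM in tdT1, 154 in tdT2 and 101 in TNF-Tg on 20, 2 and 6 UMIs. *B2m*, which encodes the partner of FcRn, did not follow it. Its level was 1596 to 2641 CPM in resident macrophages and 1313 to 2205 CPM in inflammatory monocytes, and it was not called between them (log2 difference -0.09 ± 0.29).

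The IgE receptor chains were confined to mast cells and basophils as far as the depth shows. Mast cells (gated on *Cma1*, *Mcpt4*, *Cpa3* and others) held *Fcer1a* at 1598 CPM in tdT1, 1382 in WT and 1670 in TNF-Tg, and *Ms4a2* at 685, 750 and 696 CPM. Basophils (gated on *Mcpt8* and others) held 1137 CPM of *Fcer1a* in WT and 947 in TNF-Tg, and 724 and 1005 CPM of *Ms4a2*. The 2 types overlapped for *Ms4a2* but not for *Fcer1a*, which was higher in every mast cell sum. The WT basophils were 6 cells that also held mast cell markers. In all other leukocyte gates of at least 5 cells *Fcer1a* was at most 8.01 CPM and *Ms4a2* at most 3.18 CPM, on at most 13 and 11 UMIs, against 0.98 and 1.05 CPM in WT stroma.

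**Figure D4:**
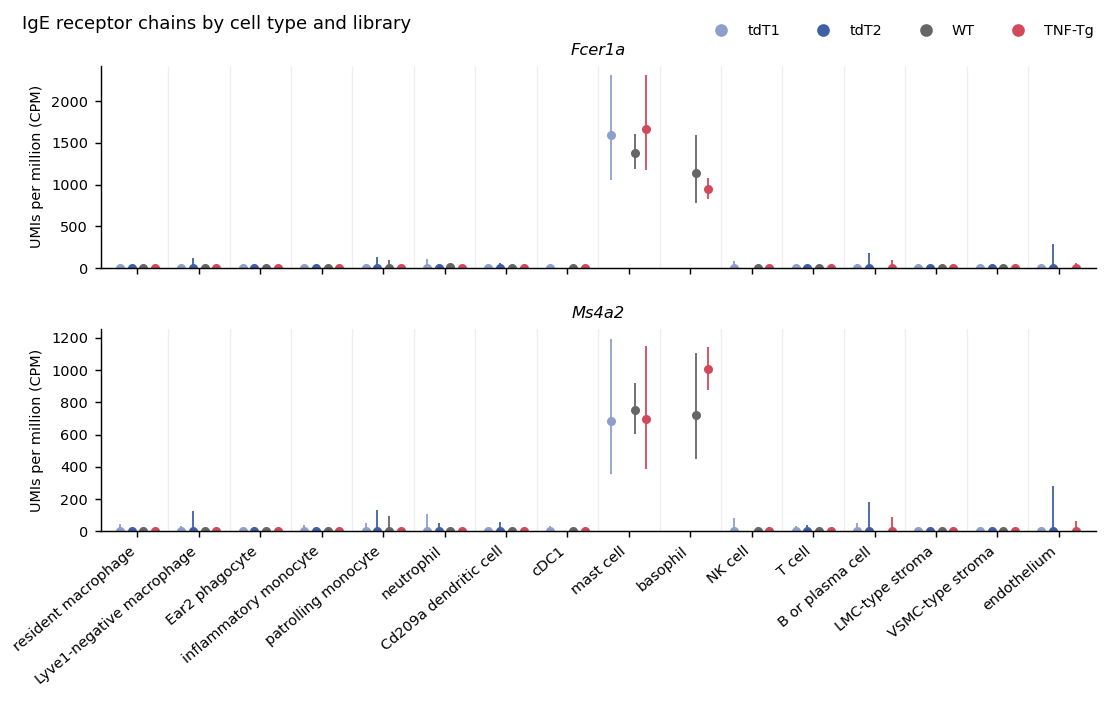
CPM of *Fcer1a* and *Ms4a2* (vertical axes, linear from 0) in each gated cell type (horizontal axis) and library (colours), with exact 95% Poisson intervals that cover counting error only. Mast cells and basophils stand at 685 CPM or above for both genes and all other types near 0.

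Against resident macrophages, over the 3 libraries with at least 5 mast cells, 14.3% of all genes and 6 of the 8 were called in mast cells. *Fcer1a* (log2 difference 9.41 ± 0.51, edgeR adjusted p = 3.8e-22) and *Ms4a2* (8.92 ± 0.56) were higher, and *Fcgrt* (-6.66 ± 0.86), *Fcgr1* (-4.17 ± 1.16), *Fcgr2b* (-3.16 ± 0.49) and *Fcgr3* (-2.13 ± 0.45) were lower. *Fcgr1* rests on 1 UMI in mast cells and its call was lost without tdT1, tdT2 or WT (edgeR adjusted p = 0.040, 0.020 and 0.11), and *Fcgr3* lost its call without WT (0.082). Mast cells were shallow, at 2228.5, 991.5 and 895 UMIs in the median cell. The neutrophil markers summed to 2591 CPM in the WT mast cells and 1253 CPM in those of TNF-Tg, and their part in these values was not tested.

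Basophils were compared with mast cells over 2 libraries, WT (6 basophils) and TNF-Tg (57). Of all genes 9.13% were called, and 0 of the 8 by edgeR or by DESeq2. One of the 8 had an unadjusted p below 0.05, *Fcgr3* (1.27 ± 0.53 higher in basophils, edgeR adjusted p = 0.094). The differences were -0.29 ± 0.39 for *Fcer1a*, 0.57 ± 0.45 for *Ms4a2* and -0.14 ± 0.60 for *Fcer1g*. In single cells both chains were found in 6 of 6 WT basophils and 52 of 57 TNF-Tg basophils, and in 42 of 102 WT mast cells, while 25 of those 102 held neither. Of the 6 WT basophils 1 passed the stricter gate, and 4 remained without doublets. The mast cell markers (6 of 7 detected in both) summed to 3067 CPM in the WT basophils and 956 CPM in those of TNF-Tg. Their part in the basophil values was not tested.

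The genes known to act with these receptors were followed as lists. Of the 20 tested genes that carry activating signals from Fc receptors, 14 were higher in neutrophils than in resident macrophages and 0 lower (median log2 difference 1.50, against -0.30 over all genes, of which 51.9% were called and 1357 of 6071 were higher). They included the Src-family kinase *Fgr* (6.27 ± 0.52), the GTPase *Rac2* (3.83 ± 0.29), itself a marker of the general leukocyte list, and *Malt1* (2.34 ± 0.45). Of the 8 tested inhibitory signalling genes, 4 were higher and 2 lower in neutrophils. Of the 13 tested other ITIM receptors of myeloid cells, 8 were higher and 2 lower in neutrophils (median log2 difference 1.70). The rise thus held for ITIM receptors as well as for the activating list.

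Of the 7 tested receptors known to pair with the gamma chain, 5 were higher in neutrophils, among them *Clec4e* (Mincle, 8.09 ± 0.82) and *Clec4d* (4.77 ± 0.37). In inflammatory monocytes over resident macrophages, 9 of the 20 activating genes were higher and 0 lower, led by *Fgr* (4.53 ± 0.51), against 730 of 6071 higher and 25.9% called over all genes. Of the 13 other ITIM receptors, 6 were higher and 2 lower in these monocytes. In mast cells, where 14.3% of all genes were called and 329 of 6071 were higher, 6 of the 20 were higher and 0 lower, led by the adaptor *Lat* (7.39 ± 0.73), the kinase *Fyn* (4.62 ± 0.57), *Lat2* (4.45 ± 0.41) and *Plcg1* (3.21 ± 0.75). Of 13 tested effector genes of mast cells and basophils, 7 were higher in mast cells and 2 lower, the higher ones including *Mrgprb2* (8.96 ± 0.70), *Il1rl1* (8.56 ± 0.70), *Gata2* (8.51 ± 0.55) and *Hdc* (8.48 ± 0.60). Between basophils and mast cells 0 of the 20 activating genes were called, against 9.13% of all genes.

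The TNF-Tg and WT libraries were then compared within each type. Each condition is 1 library, so there is no test, condition and library cannot be told apart, and the 95% intervals (exact, conditional on the sum of both counts) cover counting error only. A gene was counted where it differed at least 2-fold with at least 20 UMIs over both libraries. The percentages of all genes are over the genes with at least 20 UMIs. Counts of the Fc receptor genes are given over all of them, including those under that mark, so the 2 bases differ. The ratio of tdT1 to tdT2, 2 libraries of 1 condition, is given beside it. By the study's methods tdT1 was sorted with a smaller nozzle, into collection tubes prepared otherwise, and sequenced on another instrument than tdT2. The 2 are therefore not like-for-like repeats. The median log2 ratio of all genes was -0.24 in patrolling monocytes, -0.18 in T cells and -0.10 in neutrophils, and lay nearer to 0 in the other leukocyte types.

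*Fcer1g* was higher and *Fcgr2b* lower in TNF-Tg across types. *Fcer1g* was higher in 11 of 12 leukocyte types with enough UMIs (9 of 11 with clusters in place of gates and 8 of 10 with a stricter gate), and *Fcgr2b* was lower in 10 of 10 (10 of 11 with clusters, 8 of 9 without doublets and 6 of 8 with a stricter gate, neutrophils being higher in each of these 3). The activating receptors were also mostly lower, *Fcgr3* in 7 of 9 types, *Fcgr4* in 5 of 6 and *Fcgr1* in 4 of 5. A lower level was thus not particular to *Fcgr2b*. How many of all genes kept 1 direction over the types was not counted. The types share the same 2 libraries and are not independent of each other. In resident macrophages *Fcer1g* was at 3336 CPM in TNF-Tg and 2326 in WT (log2 ratio 0.52, 0.49 to 0.55), and close ratios were found in *Lyve1*-negative macrophages (0.55), neutrophils (0.46), *Cd209a* dendritic cells (0.59), *Ear2* phagocytes (0.48) and patrolling monocytes (0.52). Mast cells went the other way (-0.44, -0.86 to -0.05). These 6 ratios are under the 2-fold mark and smaller in size than the tdT1 to tdT2 ratios of -0.67 to -1.98 for this gene. T cells (2.64, on 121 UMIs in TNF-Tg and 23 in WT) stood above 2-fold. That did not hold with the stricter gate, where 62 of the 65 TNF-Tg T cells remained, or with clusters. The highest ratio of any type was 0.89 with the stricter gate, 0.67 with clusters and 1.78 after thinning.

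In *Cd209a* dendritic cells 198 UMIs of *Fcgr2b* (125 CPM) in TNF-Tg stood against 1006 (553 CPM) in WT (log2 ratio -2.15, -2.37 to -1.93). In inflammatory monocytes it was at 121 against 410 CPM (-1.77, -1.94 to -1.59), in cDC1 at 97.5 against 235 CPM (-1.27, -1.63 to -0.93), in *Lyve1*-negative macrophages at 424 against 879 CPM (-1.05, -1.16 to -0.95) and in *Ear2* phagocytes at 287 against 498 CPM (-0.80, -1.11 to -0.50). In resident macrophages the ratio was -0.23 (-0.29 to -0.17). In neutrophils it was -0.44 (-1.29 to 0.36), and it turned to 0.53 with clusters in place of gates, 0.40 without doublets and 0.34 with a stricter gate.

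Patrolling monocytes (-2.01) and basophils (-1.81) rest on 5 and 6 WT cells with 10 and 13 UMIs. The tdT1 to tdT2 ratio of *Fcgr2b* ran from -0.91 to 1.35 over 6 types. The free RNA moved the same way, with *Fcgr2b* at 5.14 CPM in WT stroma and 1.21 in TNF-Tg, and *Fcgr3* at 3.96 and 0.97. The part of free RNA in these ratios was not tested.

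In inflammatory monocytes, where 11.9% of all genes differed at least 2-fold, 4 of the 8 did, all IgG receptors and all lower in TNF-Tg. The ratios were -1.77 for *Fcgr2b*, -1.33 (-1.87 to -0.77) for *Fcgr4*, -1.30 (-1.57 to -1.03) for *Fcgr1* and -1.02 (-1.19 to -0.85) for *Fcgr3*. With the stricter gate 2 of the 8 passed, as *Fcgr3* was at -0.88 and *Fcgr4* at -0.74, and with clusters *Fcgr1* was at -2.36. The WT library held 86 of these cells and the TNF-Tg library 616. The macrophage markers of the *Lyve1*-negative list (9 of 9 detected in both) summed to 1037 CPM in the WT monocytes and 488 in those of TNF-Tg, and the neutrophil markers (8 of 8 in both) to 160 and 763 CPM. Their part in the ratios was not tested. The tdT1 to tdT2 ratio was -1.23 for *Fcgr1* on 6 and 27 UMIs, 0.17 for *Fcgr2b* and -0.11 for *Fcgr3*.

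In *Lyve1*-negative macrophages 17.7% of all genes and 2 of the 8 differed at least 2-fold, *Fcgr2b* (-1.05) and *Fcgrt* (-1.04, -1.19 to -0.88, and -0.94 with the stricter gate). *Fcgr3* was at -0.54, *Fcgr4* at -0.32 and *Fcgr1* at -0.16. The markers of this gate (9 of 9 detected in both) summed to 16304 CPM in WT and 6907 in TNF-Tg. Resident macrophage markers (6 of 7 in both) summed to 6504 and 4165 CPM in these cells. The part of either in the ratios was not tested. In resident macrophages the background was 10.8%, and 1 of the 8 was counted, *Fcer1a* on 8 against 13 UMIs (1.13, -0.35 to 2.51), at 2.79 and 1.28 CPM against 0.24 and 0.98 CPM in stroma. *Fcgr3* was at 506 CPM in TNF-Tg against 777 in WT (-0.62, -0.70 to -0.54) and *Fcgrt* at -0.14 there.

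In neutrophils 14.1% of all genes and 2 of the 8 differed at least 2-fold, both lower in TNF-Tg: *Fcgr4* at 42.4 against 99.3 CPM (-1.23, -1.87 to -0.64) and *Fcgrt* on 2 against 36 UMIs (-3.30, -6.40 to -1.35), or 2 against 22 UMIs without doublets (-2.61). *Fcgr3* was at 338 against 513 CPM (-0.60, -0.83 to -0.38). The resident macrophage markers, whose cells hold the highest *Fcgrt*, summed to 278 CPM in the WT neutrophils (7 of 7 detected) and 59.9 CPM in those of TNF-Tg (6 of 7), and their part in the *Fcgrt* ratio was not tested.

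In *Cd209a* dendritic cells 13.6% of all genes and 4 of the 8 differed at least 2-fold. *Fcgr2b* (-2.15), *Fcgr3* (-2.49, -3.13 to -1.90) and *Fcgr4* (-1.94, -3.70 to -0.50) were lower and *Fcgr1* was higher, on 32 UMIs in TNF-Tg and 2 in WT (4.20, 2.23 to 7.30). The *Lyve1*-negative macrophage markers summed to 1427 CPM in the WT cells of this gate and 272 CPM in those of TNF-Tg, and the inflammatory monocyte markers to 742 and 1398 CPM. Their part in the ratios was not tested. With the stricter gate or cells thinned to 3000 UMIs, *Fcgr1* had too few UMIs in this type for a ratio, and with clusters in place of gates its ratio was 2.34, on 81 UMIs in TNF-Tg and 12 in WT.

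In *Ear2* phagocytes the background was 19.4% and 0 of the 8 were counted, while *Fcgr4*, with 0 UMIs in 21 TNF-Tg cells and 67 in WT, has no ratio. The background adds 0.5 UMI to each sum, and by that rule *Fcgr4* would be counted as lower. In mast cells the background was 22.4% and again 0 of the 8 were counted, with *Fcer1a* at 0.27 (-0.29 to 0.80) and *Ms4a2* at -0.11 (-1.002 to 0.69). Both directions turned under alternatives: *Fcer1a* was at -0.47 with clusters and -0.36 with TMM scaling, and *Ms4a2* at 0.24 with the stricter gate. In basophils the ratios were -0.26 (-0.80 to 0.31) for *Fcer1a* and 0.47 (-0.17 to 1.19) for *Ms4a2* on 33 and 21 WT UMIs, and *Fcer1a* turned to 0.47 with TMM scaling. The 6 WT basophils also held 3067 CPM of mast cell markers, against 956 CPM in TNF-Tg, and their part in these ratios was not tested.

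The activating share differed between the libraries by type. It was higher in TNF-Tg than in WT in inflammatory monocytes (69.3% against 58.9%), *Lyve1*-negative macrophages (63.8% against 53.1%), *Ear2* phagocytes (55.1% against 46.8%) and *Cd209a* dendritic cells (24.4% against 16.4%). It was lower in resident macrophages (41.1% against 46.4%) and close in neutrophils (93.2% against 94.2%). Among these types the binomial intervals overlapped in *Ear2* phagocytes and in neutrophils. The share was also higher in TNF-Tg in patrolling monocytes, on 5 WT cells, and in cDC1, on few activating UMIs. The neutrophil markers summed to 3657 CPM in the TNF-Tg patrolling monocytes and 160 CPM in those of WT. Their part in the share was not tested. The tdT libraries, which share a condition, stood at 71.4% and 79.1% in inflammatory monocytes and 59.7% and 73.7% in *Lyve1*-negative macrophages, so those of WT were the lowest of the 4 in both types.

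**Figure D5:**
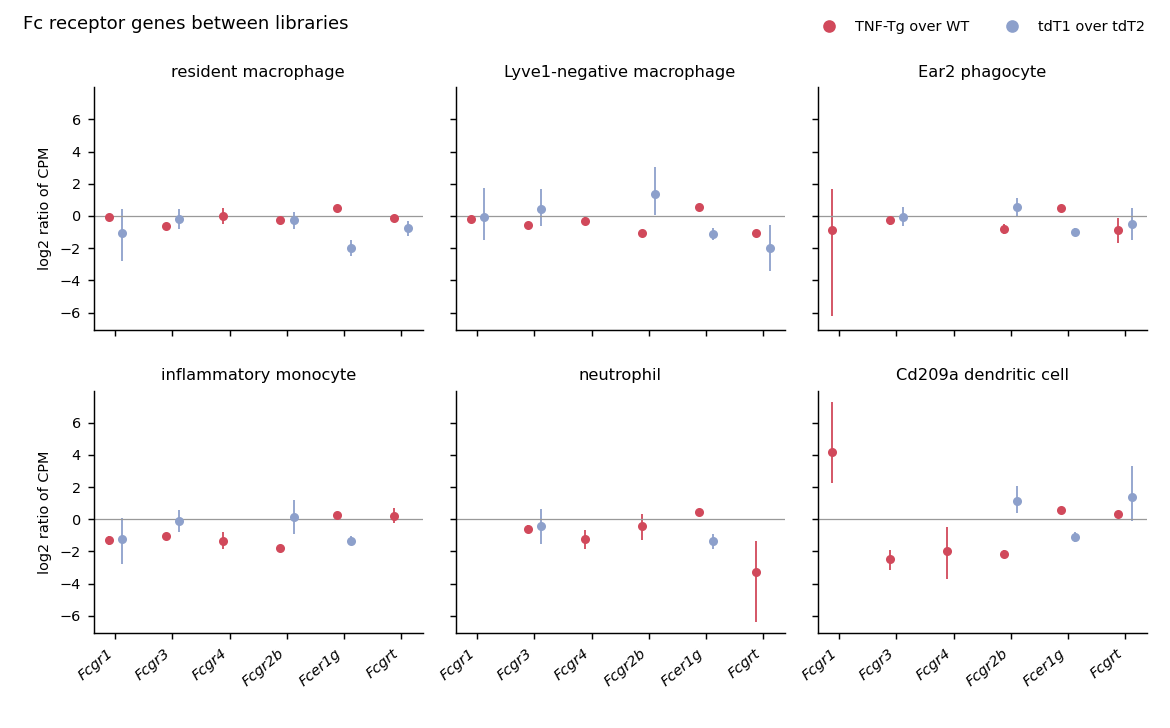
Log2 ratios of CPM (vertical axis) of 6 Fc receptor genes (horizontal axis) for TNF-Tg over WT and for tdT1 over tdT2 in 6 gated types (panels), with exact 95% intervals that cover counting error only; genes with under 20 UMIs over both libraries or 0 in one are not drawn. *Fcgr2b* lies below 0 (in neutrophils above 0 with clusters, without doublets or with a stricter gate) and *Fcer1g* above 0 for TNF-Tg over WT in all 6 panels, while *Fcer1g* lies below 0 for tdT1 over tdT2 in those panels.

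The receptors known to pair with the gamma chain differed between the libraries in macrophages and *Cd209a* dendritic cells. In resident macrophages 5 of 6 tested were at least 2-fold higher in TNF-Tg and 0 lower (median log2 ratio 1.62), against 10.8% of all genes in either direction, and in *Lyve1*-negative macrophages 5 of 6 were higher (median 1.60), against 17.7%. In *Cd209a* dendritic cells 3 of 5 tested were higher and 0 lower (median 2.16), against 13.6%. The neutrophil markers summed to 1091 CPM in the TNF-Tg resident macrophages and 197 CPM in those of WT. They went the other way in *Lyve1*-negative macrophages, at 105 CPM in TNF-Tg and 383 CPM in WT. Their part in these counts was not tested. In inflammatory monocytes 0 of 6 were higher and 1 was lower, against 11.9% of all genes. In *Ear2* phagocytes 0 of 6 were higher and 1 was lower, against 19.4%. In neutrophils 0 of 6 passed in either direction, against 14.1%. Of the activating signalling genes 3 of 20 were at least 2-fold higher in resident macrophages and 1 of 19 in inflammatory monocytes, against the same 10.8% and 11.9%. *B2m* was at 1042 CPM in TNF-Tg and 2684 in WT in *Lyve1*-negative macrophages, and at 1596 and 2641 CPM in resident macrophages.

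Among 7579 genes compared over 26 sums of type and library with at least 20 cells, the gene whose pattern was most like *Fcer1g* was *Tyrobp*, which encodes the other gamma-like ITAM adaptor of myeloid cells (Pearson r = 0.92). *Fcgr1* was most like *Msr1* (0.90), *Fcgr2b* like *Tns3* (0.92), *Fcgr3* like *Xdh* (0.92) and *Itgam* (0.91), *Fcgr4* like *Gm34084* (0.90), and *Fcgrt* like *Tspan3* (0.91). *Fcer1a* and *Ms4a2* were both most like *Cyp11a1* (0.97 and 0.98), itself a marker of the basophil gate, followed by *Gata2* (0.95 and 0.97). Mast cells entered these sums only from WT (102 cells) and basophils only from TNF-Tg (57 cells). The values for *Fcer1a* and *Ms4a2* therefore rest on those sums against all others, and genes of the same cells would score alike. The sums share libraries and depth, and the values describe likeness of pattern only.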

How the data were processed

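Cells were dissociated with Accumax, sorted, and profiled by 10x Chromium 3′ single-cell RNA sequencing in 4 libraries. The authors deposited, per library, a filtered matrix of UMI counts per gene and cell, aligned to mm10. Per the labels Cell Ranger 3.1.0 and Seurat 4.0.3 were used, whereas the matrix headers name Cell Ranger 3.1.0 for tdT1 and 6.0.1 for the others. The gene annotation release is not given in the sources used here.

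Cells were gated by scores over marker lists (score of at least 0.3, margin of 0.05, at least 3 markers), with no Fc receptor gene among them. The members, lists and tests were chosen with earlier results of these data known. Genes named beside the 8 were, per list and comparison, at most 4 of those called with the largest differences, and the 3 genes most like each member. UMIs were summed per type and library with at least 5 cells. The 46 sums were fitted with edgeR 4.0.16 (quasi-likelihood, TMM, type and library as terms, low genes filtered by filterByExpr, Benjamini-Hochberg, threshold 0.01). Values per cell were compared after thinning to 3000 UMIs, for which cells with fewer UMIs were left out. Poisson and exact Clopper-Pearson intervals are at 95% and cover counting error only. A count of 0 allows up to 3 UMIs. Scrublet in scanpy 1.11.5 marked 4, 1, 138 and 49 doublets in tdT1, tdT2, WT and TNF-Tg, which were kept except in 1 alternative; the shares in the tdT libraries were 0.266% and 0.220%. Library totals were 14256192, 2357031, 68773605 and 37557627 UMIs in the same order. Alternatives were DESeq2 1.42.0, its size factors, no low-count filter, each library left out, a stricter gate (score of 0.4, margin of 0.15), Seurat 5.3.0 clusters, no doublets, cells with at most 10% mitochondrial UMIs and at least 500 genes, thinning and TMM scaling. The count fit was tested on simulated data. Genotypes were not checked in the counts, since the human transgene was not used here.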

Additional observations from a re-analysis of the deposited data

Results flagged for a closer look

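*Fcgr1* moved in opposite directions in 2 types between the TNF-Tg and WT libraries. The log2 ratio was 4.20 in *Cd209a* dendritic cells, on 32 UMIs in TNF-Tg and 2 in WT, and -1.30 in inflammatory monocytes, on 455 and 150 UMIs. The difference between the types was not tested, since each condition is 1 library. Cells with a UMI of *Fcgr1* were 15.3% of the TNF-Tg dendritic cells and 1.65% of those of WT, and 5.71% and 0.826% after thinning to 3000 UMIs. Both tdT libraries held 0 UMIs in this gate. The inflammatory monocyte markers summed to 1398 CPM in the TNF-Tg dendritic cells and 742 CPM in those of WT, and their part in the ratio was not tested.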

How the results depend on the processing

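Of 626 alternative values over 83 results, 1 turned the direction of a result that had passed its threshold: *Fcer1a* in neutrophils over resident macrophages ranged from -0.13 without WT to 3.38 without TNF-Tg. The number of the 8 genes called ranged, with each library left out in turn, from 4 to 5 in neutrophils, 2 to 2 in inflammatory monocytes, 1 to 2 in *Lyve1*-negative macrophages (1 without tdT1 or WT), 1 to 2 in patrolling over inflammatory monocytes (1 without TNF-Tg, and 1 with clusters), 3 to 4 in *Cd209a* dendritic cells, 4 to 6 in mast cells and 0 to 0 in basophils over mast cells. The log2 activating to inhibitory difference from resident macrophages ranged from 0.90 to 1.33 in *Lyve1*-negative macrophages, 1.37 to 1.86 in inflammatory monocytes, 1.24 to 1.76 in patrolling monocytes, 4.55 to 5.34 in neutrophils, -2.80 to -2.10 in *Cd209a* dendritic cells, 0.02 to 0.37 in *Ear2* phagocytes and -4.46 to -3.01 in cDC1, where clusters gave -1.89. The cluster named cDC1 had the proliferation genes *Stmn1* and *Top2a* among its top genes, so its value is not one for the gated cDC1. That cluster also enters the count of types for *Fcer1g* with clusters. For TNF-Tg over WT, the number of the 8 at least 2-fold apart was 0 in resident macrophages with the stricter gate, clusters, no doublets, thinning or TMM scaling. It was 1 in *Lyve1*-negative macrophages and 2 in inflammatory monocytes with the stricter gate, and 2 in *Cd209a* dendritic cells after thinning. In *Ear2* phagocytes it was 1 with the stricter gate, 2 with clusters and 1 after thinning, and in mast cells 2 with clusters and 1 with TMM scaling. Ratios under 2-fold also changed sign, among them *Fcgr2b* in neutrophils (-0.44 to 0.53 with clusters) and *Fcer1a* in mast cells (0.27 to -0.47 with clusters). The causes were not tested.

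Over all genes, dropping the low-count filter raised the calls from 3148 to 4777 in neutrophils, 1570 to 2376 in inflammatory monocytes, 302 to 593 in *Lyve1*-negative macrophages, 241 to 392 in patrolling monocytes and 1861 to 2904 in *Cd209a* dendritic cells. DESeq2 called 146 higher and 86 lower in *Lyve1*-negative macrophages against 151 and 151, and 104 higher and 128 lower in patrolling monocytes against 134 and 107. It moved the median of all genes from -0.30 to -0.15 in neutrophils, -0.43 to -0.26 in mast cells and -0.08 to 0.03 in *Cd209a* dendritic cells. Clusters gave 136 calls in patrolling monocytes and 352 in basophils, against 241 and 554.

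The conditions could not be paired or compared with replicates, because only the tdT group has more than 1 library. Between types, library was a term of every edgeR comparison, and activating shares were compared within the same library. Basophils could not be compared with mast cells without WT, without TNF-Tg, with the stricter gate or without doublets. Depth limits the tdT leukocytes, the WT patrolling monocytes and basophils, and mast cells.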
